A study of Mus musculus with 12 samples.

Results

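Cntnap5a, Cntnap5b and Cntnap5c, the mouse genes of the Cntnap5 family, were examined for H3K9me3 (histone H3 trimethylated at lysine 9). The cells were neural progenitors labelled as knockout or wild type in a study of SETDB1. The members are the regions that the authors' deposited H3K9me3 table annotates to these 3 gene symbols, 169 regions of the 50654 listed. The genes were selected on the measured H3K9me3 difference itself, since most of their regions were listed as higher in the knockout. The direction and size of that difference therefore describe the choice, and no test of them is given.

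The knockout (KO) group was labelled Nestin-KO, in a study of the histone methyltransferase SETDB1, and its controls were wild type (WT). All libraries came from neurosphere cultures of the ganglionic eminence of C57BL/6 embryos at embryonic stage E15.5, labelled as neural progenitor cells. Native ChIP (without crosslinking) was made from 100000 nuclei per library, for H3K9me3 and for H3K27ac (acetylated lysine 27), with 3 KO and 3 WT animals for each mark. Nestin is active in neural progenitors, so the label points to a deletion in that lineage. The sources used here do not give the allele or the Cre line, and cells of a culture that escaped deletion would be mixed into the KO values. For H3K9me3 all 3 KO animals were male, while 2 of the WT animals were female and 1 was male. For H3K27ac each genotype had 1 female and 2 males.

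CNTNAP proteins (contactin-associated proteins) are cell-surface adhesion molecules of the neurexin superfamily. They span the membrane once, and some of them bind contactins, adhesion proteins held to the membrane by a lipid anchor. Cntnap5 genes are known mainly from the nervous system. H3K9me3 is a mark of silenced chromatin, and SETDB1 is one of the enzymes that place it, with repeat sequences and clustered gene families among its known targets. H3K27ac marks active promoters and enhancers.

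All coordinates are in mm10. Cntnap5a lies on chromosome 1 from 115684737 to 116587323 and is 902.6 kb long. Cntnap5b lies on the same chromosome from 99772246 to 100490599 and is 718.4 kb long. Cntnap5c lies on chromosome 17 from 57769074 to 58417953 and is 648.9 kb long. The authors' table places all 3 genes on the plus strand. It annotates each of the 169 regions as gene body, and whether a region falls in an exon or an intron was not analysed here. The genes are close relatives, and the sources used here do not say how reads that match more than 1 place were handled.

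The promoter of Cntnap5b is shown because it is the only one of the 3 in the RefSeq promoter table used here. No listed H3K9me3 region of either direction overlaps it, and the first region of the gene begins 11.6 kb from the gene start. It is the RefSeq sequence of chr1:99772151-99772450 on the plus strand (GRCm38.p6), from 250 bases before to 50 after the start that the promoter table uses. The authors' start of the gene, 99772765, lies behind this window, and the gene span given above begins inside it. Capitals mark the matches to CCAAT and GGGCGG, searched on both strands.
Cntnap5b: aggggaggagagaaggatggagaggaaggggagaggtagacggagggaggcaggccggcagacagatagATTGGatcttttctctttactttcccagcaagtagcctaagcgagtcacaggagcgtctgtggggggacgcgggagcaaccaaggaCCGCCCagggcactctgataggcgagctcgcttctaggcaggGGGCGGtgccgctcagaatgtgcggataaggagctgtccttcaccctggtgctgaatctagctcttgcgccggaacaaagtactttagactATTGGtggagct
The window has a GC content of 57.7% and 14 CpG sites, against medians of 52.7% and 7 over 32851 promoters. CCAAT matched 2 times, both on the minus strand, and 37.4% of all promoters hold it. GGGCGG matched 2 times, once on each strand, and 35.7% of promoters hold it. TATAAA, which 13.6% of promoters hold, was not found in these letters. Promoters of Cntnap5a and Cntnap5c were not analysed here.

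Across the whole H3K9me3 table, 28.9% of the 50654 listed regions were higher in KO and 71.1% were lower, at the authors' adjusted p of 0.05 or less. The table lists only regions that the authors selected, and their p-values leave out the spread between animals. It gives 3 normalised counts per genotype without saying which animal each belongs to. The values are therefore named by their place in the list (the first, the second or the third of a genotype). Each position holds whole multiples of the value of 1 read, so reads could be recovered. At the 158 member regions higher in KO, the median was 16, 108 and 70.5 reads at the KO positions, against 10, 35 and 40.5 reads at the WT positions. The first KO and the first WT value therefore rest on the fewest reads. Setdb1 itself (chromosome 3, 95323525 to 95357202) had 0 listed H3K9me3 regions. It had 1 H3K27ac peak in each KO library, against 3, 2 and 0 in the WT libraries. These files hold no measure of the deletion.

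The cell type label was compared with marker genes, counted where an H3K27ac peak overlapped the gene or came within 1 kb. Of 10 neural progenitor markers, 8, 9 and 6 had a peak in the KO libraries, against 10, 9 and 5 in the WT libraries. Of 10 ganglionic eminence markers, 1, 2 and 0 had one in KO, against 3, 3 and 1 in WT. The defining genes Dlx2, Dlx5, Dlx6, Gsx2, Nkx2-1 and Gad2 had none in any library, so most progenitor markers carried the active mark and most regional markers did not. None of 7 markers of cortical excitatory neurons had a peak in any library. Astrocyte markers had peaks at 3, 4 and 2 of 4 genes in KO, against 3, 3 and 0 in WT. The counts were 2, 2 and 1 of 5 oligodendrocyte markers in KO, against 1, 2 and 0 in WT. They were 2, 3 and 2 of 5 mature neuron markers in KO, against 3, 2 and 2 in WT. Microglia and blood markers had 0, 2 and 0 of 6 in KO, against 2, 1 and 0 in WT. Vascular markers had 1, 2 and 1 of 5 in KO, against 1, 2 and 2 in WT. H3K9me3 came from other animals than these peaks, and the part of other cell types in the results below was not tested.

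Of the 169 member regions, 158 were higher in KO and 11 were lower (93.5% higher, against 28.9% of all listed regions). Since this contrast chose the genes, nothing is read from that difference. Cntnap5a held 79 higher and 5 lower regions, Cntnap5b 28 and 2, and Cntnap5c 51 and 4. All 169 were at or below an adjusted p of 0.0233 in the authors' deposited table. Among 5667 gene symbols in the table, Cntnap5a had the most higher regions, Cntnap5c stood 3rd and Cntnap5b 9th. This order rests on the contrast that chose the genes and takes no account of gene length.

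The size of the gain was similar in the 3 genes. The median log2 fold change of the higher regions, KO over WT, was 1.01 at Cntnap5a (0.63 to 2.13), 0.955 at Cntnap5b (0.59 to 1.81) and 0.87 at Cntnap5c (0.52 to 1.51) in the authors' deposited table. Over all listed higher regions it was 0.81.

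Levels per kb show the KO values next to the WT values at each position. The higher regions of Cntnap5a had 35.0, 36.8 and 47.4 normalised reads per kb in KO, against 16.6, 21.5 and 20.6 in WT. Those of Cntnap5b had 32.9, 36.9 and 46.8 in KO, against 16.2, 21.9 and 21.6 in WT. Those of Cntnap5c had 35.0, 37.8 and 46.5 in KO, against 15.3, 23.5 and 24.6 in WT. In each gene all 3 KO levels lay above all 3 WT levels, the third KO value was the highest and the first WT value the lowest. These regions were sorted as higher in KO, so the direction follows from the sorting. Over all listed higher regions the levels were 56.2, 51.5 and 59.3 in KO, against 31.5, 35.0 and 35.6 in WT. The third KO value was the highest and the first WT value the lowest there too. At Cntnap5a the KO values averaged 39.7 ± 6.70 and the WT values 19.6 ± 2.61 (SD, n = 3 each). At Cntnap5b they averaged 38.9 ± 7.16 in KO and 19.9 ± 3.21 in WT. At Cntnap5c they averaged 39.8 ± 6.00 in KO and 21.1 ± 5.08 in WT. All listed higher regions together stood higher in both genotypes, at 55.7 ± 3.93 in KO and 34.0 ± 2.21 in WT. In bulk nuclei, a change in the number of cells that carry a mark and a change in the mark per cell cannot be told apart.

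**Figure D1:**
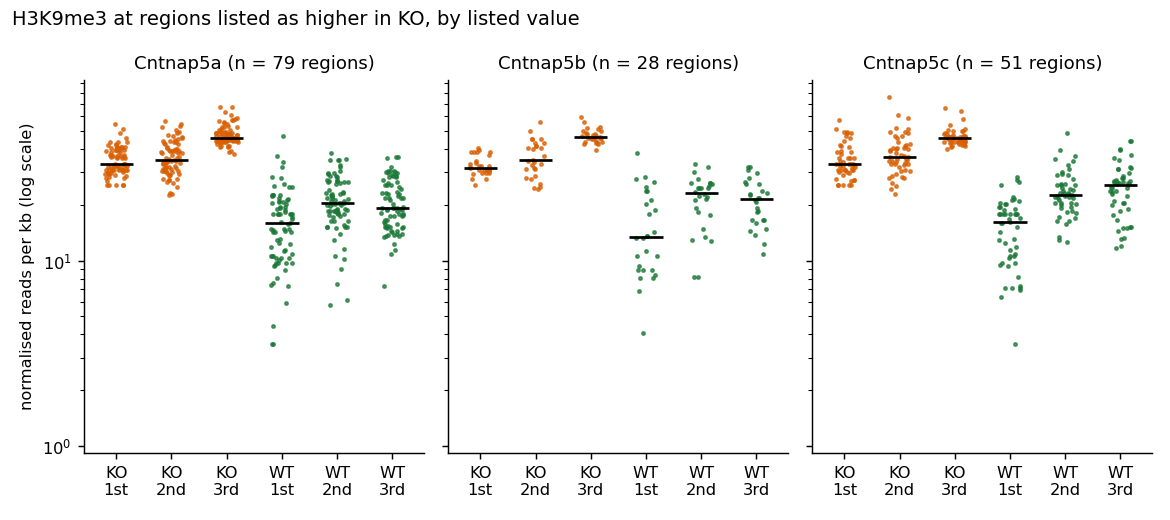
Normalised H3K9me3 reads per kb (log scale) at the member regions higher in KO, at the first, the second and the third place in the list, of KO (orange) and of WT (green). Each point is a region and each black line the median over the regions of that gene. In all 3 genes the 3 KO medians lie above the 3 WT medians, and the WT points spread more widely than the KO points.

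The regions higher in KO had low H3K9me3 in WT. The authors' enrichment (a ratio to a background that their files do not define) had a WT median of 0.73 at Cntnap5a, 0.74 at Cntnap5b and 0.85 at Cntnap5c among higher regions. The KO medians there were 1.67, 1.70 and 1.84. In KO the ratio was above 1 at 155 of the 158 higher regions (98.1%, against 97.8% of all listed higher regions). In WT it was below 1 at 119 of them (75.3%, against 59.8%). Most higher regions of these genes thus had a WT ratio below 1 and a KO ratio above it. They were sorted as higher in KO, so a WT ratio below the KO ratio follows from the sorting. The share with a KO ratio above 1 was near that of all listed higher regions.

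At single regions the replicate values were less uniform. The 3 KO values lay above all 3 WT values at 126 of the 158 higher regions (79.7%, against 70.0% of all listed higher regions). That was 67 of 79 at Cntnap5a, 22 of 28 at Cntnap5b and 37 of 51 at Cntnap5c. At the remaining 32 regions the first KO value lay inside the WT range at 24, the second at 12 and the third at 2. On the WT side, the third value lay inside the KO range at 18, the second at 16 and the first at 3. The overlaps thus involved mainly the first KO value and the second and the third WT value.

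The lowest first KO value at the 158 higher regions was 30.57 normalised reads, which is 12 reads, and 20 regions stood exactly there. Over all listed higher regions, 8.1% stood at that value and 0.021% below it. Nearly no listed higher region had a first KO value under 12 reads.

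The leading regions of each gene, those with the smallest adjusted p in the authors' table, lay far apart. That choice favours regions with KO values above WT values, so nothing is read from their separation in any of the 3 genes. In Cntnap5a the region at chr1:116187701-116189600, 504 kb from the gene start by its middle, had 56.0, 59.7 and 106 normalised reads in KO, against 19.5, 28.7 and 25.4 in WT. The third KO value stood well above the other KO values there, and all 3 exceeded every WT value. The region at chr1:116560001-116561900, near the far end of the gene, had 86.6, 80.7 and 83.2 reads in KO, against 24.8, 41.0 and 21.8 in WT. Here the 3 KO values were close to each other. The region at chr1:116373601-116375700 had 89.2, 91.1 and 104 reads in KO, against 21.3, 59.9 and 29.0 in WT. The log2 fold changes of these 3 regions were 1.59, 1.52 and 1.37 in the authors' deposited table.

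In Cntnap5b the leading region was chr1:99917501-99918800, 146 kb from the start, with 40.8, 58.4 and 66.4 reads in KO, against 17.7, 10.7 and 18.9 in WT. Its log2 fold change of 1.81 was the highest of this gene in the authors' deposited table. The region at chr1:99783801-99785700, the first in the gene, had 56.0, 65.4 and 91.6 reads in KO, against 17.7, 41.0 and 28.3 in WT. The longest region, chr1:100035801-100039000, had 122, 128 and 140 reads in KO, against 60.3, 70.5 and 72.5 in WT. The groups did not overlap at any of these 3 regions.

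In Cntnap5c the region at chr17:57798201-57800600, 30.3 kb from the start, had 99.4, 105 and 121 reads in KO, against 40.8, 58.2 and 56.6 in WT. The region at chr17:57924201-57925900 had 43.3, 59.7 and 84.9 reads in KO, against 12.4, 27.9 and 28.3 in WT. The region at chr17:58083701-58085100 had 38.2, 46.2 and 74.8 reads in KO, against 21.3, 18.0 and 16.7 in WT. Each had 3 KO values above all WT values, with the third KO value the highest. The log2 fold changes were 1.07, 1.45 and 1.51 in the authors' deposited table.

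The 11 lower regions were fewer and shallower. Their log2 fold changes ran from -0.94 to -0.54, against a median of -1.17 over all listed lower regions. The 3 KO values lay below all 3 WT values at 6 of the 11, with 3 at Cntnap5a, 0 at Cntnap5b and 3 at Cntnap5c (all listed lower regions, 76.3%). The largest drop was in Cntnap5a at chr1:116356801-116358100, with 2.55, 25.7 and 51.3 reads in KO, against 55.0, 59.9 and 37.7 in WT. The KO values spread widely, the first of them stands for a lone read, and the groups overlap. In the longest lower region, chr1:115885401-115888600 of the same gene, the values were 79.0, 122 and 115 reads in KO, against 160, 180 and 178 in WT. Here the groups were apart. At chr1:115799401-115800700 they were 20.4, 36.2 and 39.5 in KO, against 72.7, 50.03 and 49.3 in WT, again without overlap.

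Both lower regions of Cntnap5b rest on spread values. At chr1:100228201-100229800 the values were 17.8, 49.7 and 81.5 reads in KO, against 88.6, 73.0 and 63.8 in WT. At chr1:100179301-100181200 they were 94.3, 154 and 177 in KO, against 119, 141 and 360 in WT. The groups overlapped at both, and the direction of chr1:100179301-100181200 turned without the third WT value. In Cntnap5c the region at chr17:58192601-58193600 had 12.7, 27.5 and 31.1 reads in KO, against 37.2, 45.9 and 41.3 in WT. The region at chr17:58232901-58233900 had 20.4, 34.0 and 24.4 in KO, against 56.7, 41.0 and 36.3 in WT. That at chr17:57967601-57969200 had 7.64, 51.0 and 49.6 in KO, against 67.4, 58.2 and 56.6 in WT. The groups were apart at these 3 regions of Cntnap5c. The authors' WT enrichment at the 11 lower regions was 1.29 to 3.10, so all 11 had a WT ratio above 1. With a median-ratio scaling instead, which raised log2 fold changes over the table by a median of 0.79, none of the 11 was called lower. That scaling called 45.2% of the regions it called in either direction higher over the whole table.

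**Figure D2:**
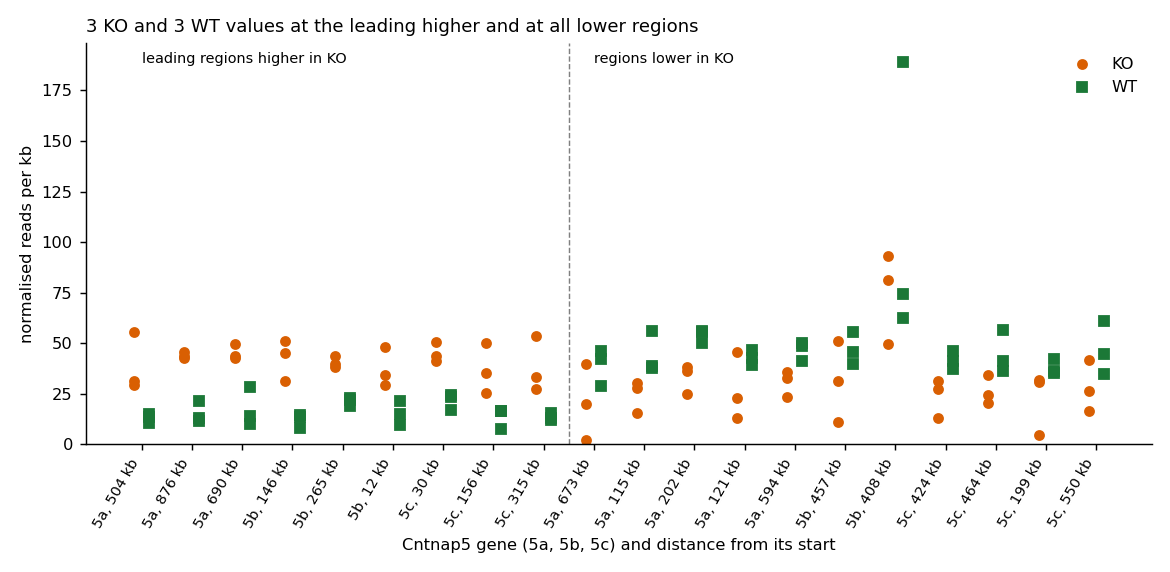
Normalised H3K9me3 reads per kb in the 3 KO (orange circles) and 3 WT (green squares) listed values at the 9 leading higher regions (left of the dashed line) and at all 11 lower regions (right), each named by gene and distance from the gene start. KO and WT overlap at 5 of the 11 lower regions. KO values lie above WT values at all 9 higher regions, which were picked by smallest adjusted p. Among all 158 higher regions that held at 126.

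Along Cntnap5a the higher regions ran through the whole gene. Cut into 10 equal segments from start to end, it held 4, 8, 11, 12, 6, 4, 7, 9, 9 and 9 of them. The first region annotated to the gene began 19.6 kb from its start and the last ended 11.3 kb from its end. Behind that last one but still within the span lay chr1:116584701-116585700, also higher in KO, which the authors annotated to no gene. Its log2 fold change was 1.09 in the authors' deposited table. The median gap between neighbouring regions was 5.8 kb and the longest was 45.9 kb. Together the higher regions covered 112.2 kb, or 12.4% of the gene. No segment was without a higher region.

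Along Cntnap5b the regions were sparser. The same 10 segments held 6, 3, 3, 5, 3, 3, 0, 3, 0 and 2 higher regions, and the higher regions covered 38.8 kb, or 5.4% of the gene. The median gap was 15500 bp and the longest, from 574.1 to 653.2 kb behind the start, was 79.1 kb. Higher regions were most frequent in the segment at the start.

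Cntnap5c was in between, with 8, 8, 4, 3, 4, 4, 4, 10, 4 and 2 higher regions per segment. These covered 67.7 kb, or 10.4% of the gene, with a median gap of 6.8 kb. The first region annotated to the gene began 7.43 kb from the start and the last ended 6.35 kb from the end. Behind that last one but still within the span lay chr17:58414301-58417500, also higher in KO, which the authors annotated to no gene. Its log2 fold change was 0.84 in the authors' deposited table. Per Mb of gene there were 87.5 higher regions at Cntnap5a, 39.0 at Cntnap5b and 78.6 at Cntnap5c. Most regions were short, with a median length of 1300 bp at Cntnap5a and of 1200 bp at the other two genes.

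**Figure D3:**
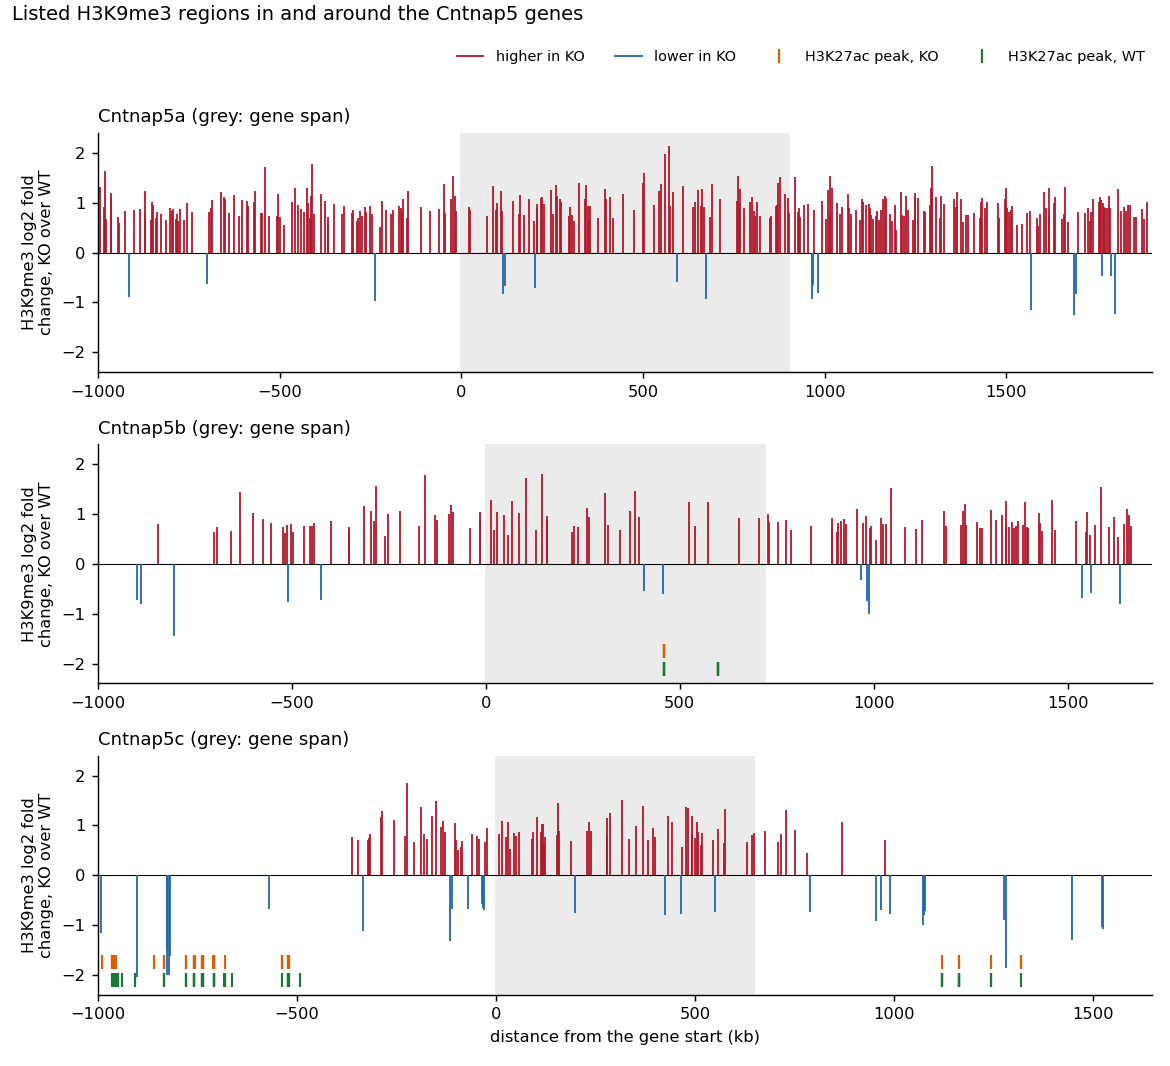
Listed H3K9me3 regions by distance from the gene start (kb) and authors' log2 fold change, KO over WT, from 1 Mb before each gene to 1 Mb behind it. Red lines are regions higher in KO, blue lines are regions lower in KO, grey marks the gene, and ticks below mark H3K27ac peaks of any KO library (orange, upper row) and any WT library (green, lower row). Higher regions continue beyond both ends of all 3 genes, for 364 kb before the start of Cntnap5c, and no H3K27ac tick lies inside Cntnap5a or Cntnap5c.

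The gain did not stop at the gene ends. The first listed region beyond each end was higher in KO at all 6 ends, with log2 fold changes of 0.83 before the start and 0.80 behind the end of Cntnap5a, 0.90 and 1.00 at Cntnap5b, and 0.95 and 0.88 at Cntnap5c in the authors' deposited table. The nearest of them, chr1:116587501-116588900, lay 0.178 kb behind the end of Cntnap5a. It had 40.8, 63.2 and 72.3 reads in KO, against 24.8, 31.2 and 45.0 in WT, with the first KO value inside the WT range. At the start of Cntnap5b the first region beyond, chr1:99757801-99759300, had 48.4, 42.7 and 63.0 reads in KO, against 30.1, 28.7 and 23.9 in WT, without overlap.

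Around Cntnap5a the flanks held as many higher regions as the gene or more. The 1 Mb before the start held 100 higher and 3 lower regions, and the 1 Mb behind the end held 124 and 9. Per kb of higher region the flank before the start had 40.8, 35.3 and 45.7 reads in KO, against 19.4, 22.1 and 23.7 in WT. These levels were close to those inside the gene. Flank and gene levels, here and at Cntnap5b, both come from regions sorted as higher in KO. Their likeness is therefore not read as a result. In bins of 0.5 Mb, higher regions outnumbered lower ones from 4.5 Mb before the start to 2 Mb behind the end, and from there to 5 Mb behind the end there were 0 higher regions. The stretch of chromosome 1 between 110 and 125 Mb, chosen after its values were seen, had 930 higher regions and 135 lower ones. Cntnap5a contributed 79 of the higher and 5 of the lower.

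Around Cntnap5b the flanks held 37 higher and 5 lower regions before the start and 67 and 6 behind the end. The flank behind the end had 38.7, 36.5 and 46.4 reads per kb of higher region in KO, against 17.8, 23.8 and 26.1 in WT. From 1 to 2.5 Mb before the start there were 0 higher regions. Behind the end higher regions outnumbered lower ones in each 0.5 Mb bin as far as 3.5 Mb. The higher regions around this gene thus reached farther behind its end than before its start.

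Around Cntnap5c higher regions lay close to the gene, with a separate stretch farther before it. The 1 Mb before the start held 29 higher and 14 lower regions, the farthest higher one 364 kb away, and the 1 Mb behind the end held 8 and 12, the farthest higher one 329 kb away. From 0.5 to 1 Mb before the start there were 0 higher regions, and from 1 to 2 Mb there were 1 and 1 in the bins of 0.5 Mb. The 6 bins from 2 to 5 Mb before the start then held 15, 34, 30, 53, 10 and 20 higher regions, against 4, 4, 2, 4, 3 and 4 lower ones. In the 1 Mb flanks of this gene higher regions were 67.4% of listed regions before the start and 40.0% behind the end. With flanks of 0.5 Mb these shares were 80.6% and 53.3%, and with flanks of 2 Mb they were 53.4% and 31.0%. At Cntnap5a the shares in 1 Mb were 97.1% and 93.2%, and at Cntnap5b 88.1% and 91.8%.

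**Figure D4:**
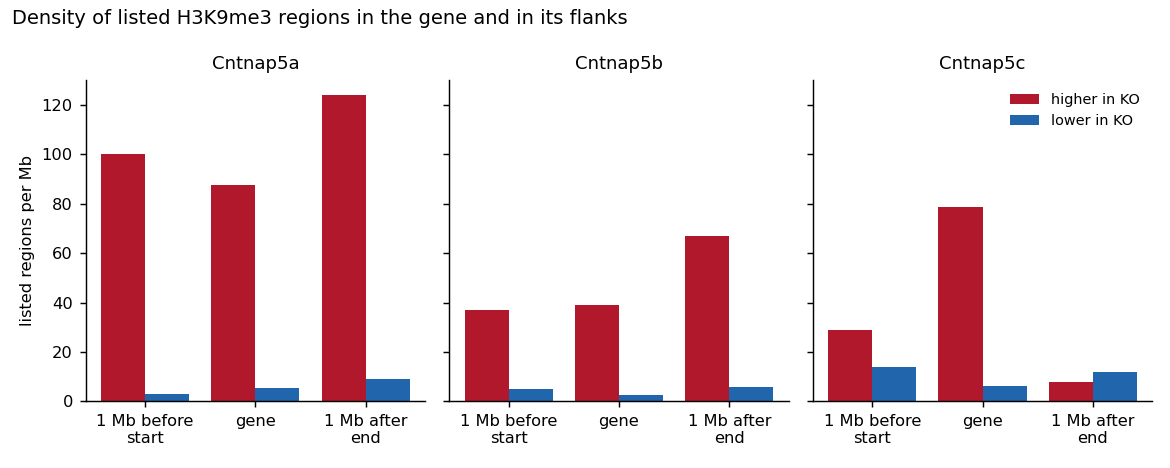
Listed H3K9me3 regions per Mb that were higher (red) or lower (blue) in KO, in the 1 Mb before the start, in the gene and in the 1 Mb behind the end. At Cntnap5a both flanks exceed the 87.5 higher regions per Mb of the gene, and at Cntnap5c both flanks, at 29 and 8, are below the 78.6 of the gene.

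The neighbourhoods of the genes differ in gene content. Within 1 Mb of either end of Cntnap5a the RefSeq annotation has 0 protein-coding genes outside the gene, and the nearest one, B020011L13Rik, begins 1194 kb behind its end. All higher regions of both flanks were annotated as gene desert or other intergenic sequence. Within 1 Mb of Cntnap5b there were also 0 outside the gene, and Gm29667, which lies inside it, had 0 listed regions. Of the flank's higher regions, 4 were annotated to the noncoding Gm20268. The long noncoding LOC108167704 and Gm51641 overlap the starts of Cntnap5a and Cntnap5b and overlapped 2 and 4 higher regions.

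Cntnap5c had 26 protein-coding genes within 1 Mb before its start and 2 behind its end. Adgre1, a surface receptor of macrophages, had 7 higher and 1 lower region, and Vmn2r120, a vomeronasal receptor gene, had 3 higher. Acsbg2, an acyl-CoA synthetase, and Rfx2, a transcription factor of ciliated cells and spermatids, had 1 lower region each. Pdzph1 and Nudt12, 460.9 and 582.2 kb behind the end, had 0 listed regions. The remaining 19 higher and 11 lower regions before the start were intergenic.

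Relatives of the Cntnap5 genes differed in direction, and the contactins had mostly lower regions. Of the 4 other Cntnap genes, 3 had a listed region, with 18 higher and 16 lower regions in all. The contactins Cntn1 to Cntn6, partners of CNTNAP proteins, had 1 higher and 25 lower regions over 5 genes, of which 15 lower ones lay at Cntn5. Cntnap4 had 0 higher and 2 lower regions, and Cntnap1, which acts at the paranodes of myelinated axons, had none listed.

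Cntnap3 and Cntnap2 had both directions. Cntnap3 had 8 higher regions and 1 lower. Its higher regions had 37.8, 31.0 and 50.5 normalised reads per kb in KO, against 19.8, 23.2 and 22.1 in WT. The groups did not overlap at 6 of the 8 (75.0%, against 70.0% of all listed higher regions). Cntnap2, a gene of 2241 kb whose product clusters potassium channels at the juxtaparanodes of axons, had 10 higher and 13 lower regions. Its higher regions had 29.8, 32.5 and 50.5 reads per kb in KO, against 14.3, 22.0 and 19.1 in WT. Its lower ones had 17.4, 21.4 and 31.5 in KO, against 44.8, 46.3 and 41.2 in WT.

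Most long genes had more lower than higher regions. Of 221 genes of 500 kb or more with a listed region, 16 had more higher than lower regions and 203 had more lower ones. The 3 Cntnap5 genes held 158 of the 379 higher regions in these genes (41.7%) and 11 of the 1670 lower ones (0.659%). They were chosen for their higher regions, so these shares follow from the choice. Without them, 13 of 218 genes had more higher than lower regions and 203 had more lower ones. Those 218 genes held 221 higher and 1659 lower regions. In a list of 30 long genes, 4 had more higher than lower regions, namely Nell1, a secreted protein of bone formation (42 higher, 6 lower), Ano2, a calcium-activated chloride channel (38 and 0), Dpp10, an accessory subunit of potassium channels (37 and 1), and Rbfox1, a splicing regulator (4 and 2). Fhit had 25 lower regions, Park2 (parkin, a ubiquitin ligase) 26 and Lrp1b 21, with 0 higher in each.

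The level at the gained regions of Nell1 was like that of the Cntnap5 genes, at 33.8, 45.1 and 47.8 reads per kb in KO, against 14.0, 25.8 and 27.5 in WT. Ano2 had 35.6, 46.8 and 48.1 in KO, against 14.0, 28.7 and 31.8 in WT. The groups did not overlap at 66.7% of the higher regions of Nell1 and 57.9% of those of Ano2. Both shares were below the 70.0% of all listed higher regions. Fhit ran the other way, with 11.2, 16.3 and 29.3 reads per kb in KO, against 43.8, 48.3 and 40.7 in WT. All 3 KO levels at Fhit lay below all 3 WT levels. The levels of Nell1, Ano2 and Fhit come from regions sorted by direction, so their direction follows from the sorting.

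**Figure D5:**
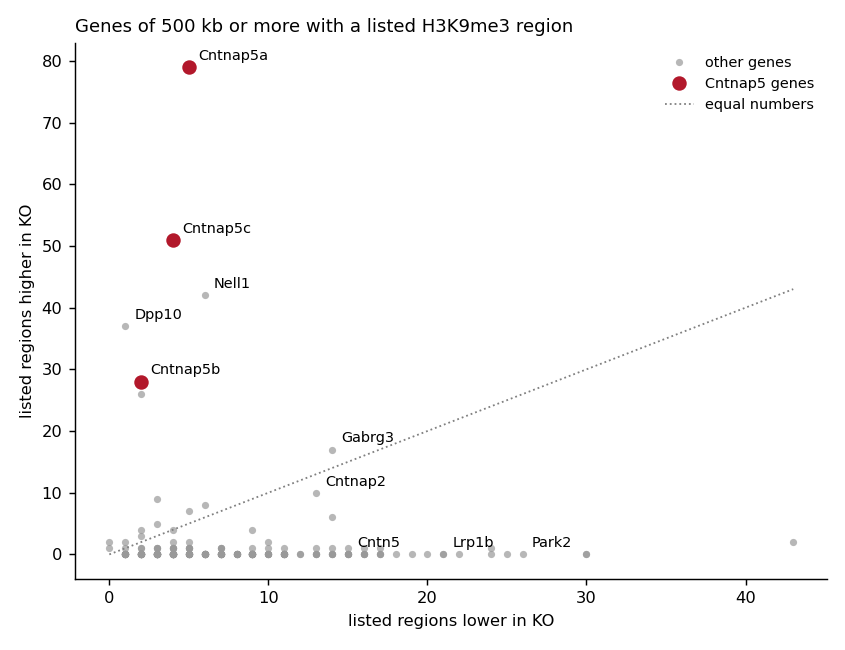
Number of listed H3K9me3 regions higher in KO (vertical axis) against the number lower in KO (horizontal axis) for the 221 genes of 500 kb or more with a listed region. Each point is a gene, and the dotted line marks equal numbers. The 3 Cntnap5 genes (red), chosen for their higher regions, lie far above it, with 79, 28 and 51 higher regions. Most genes lie along the horizontal axis.

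Profiles over the 6 listed values were used only to find genes most like the members. Each gene's profile was the mean over its regions of log2(value + 1), centred on its own mean. For the 3 genes together it was 0.23, 0.38 and 0.75 in KO, against -0.77, -0.29 and -0.29 in WT. Since the members were chosen for KO above WT and make up this profile, their own closeness to it is not a result. By Euclidean distance, the 5 nearest of 147 other genes with 10 or more regions were Cpne4, a calcium-dependent phospholipid-binding protein (distance 0.21), Gm5795 (0.246), Dpp10 (0.271), Lrfn5, a synaptic adhesion protein (0.314), and Nell1 (0.418). Cpne4 had 19 higher and 3 lower regions, Gm5795 11 and 0, and Lrfn5 12 and 1. Of these, Dpp10 lies on chromosome 1 from 123332138 to 124845815, within the 110 to 125 Mb stretch that holds Cntnap5a. All profiles share the same 6 libraries and their scaling.

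H3K27ac, measured in other animals, was not used to choose the genes. No peak lay inside Cntnap5a or Cntnap5c in any of the 3 KO or 3 WT libraries. None lay outside Cntnap5a or Cntnap5b within 1 Mb of their ends. The nearest peak of any library was 2.67 Mb before Cntnap5a and 1.71 Mb behind it, and 1.1 Mb before Cntnap5b and 1.3 Mb behind it. Lists held 26393, 42712 and 11502 peaks in KO and 31951, 37342 and 12505 in WT, and the depth of these libraries is unknown.

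Inside Cntnap5b there were 2, 1 and 1 peaks in the KO libraries, against 2, 3 and 3 in the WT libraries. KO libraries averaged 1.33 ± 0.577 peaks and WT libraries 2.67 ± 0.577 (SD, n = 3 each), and the difference did not pass (exact permutation test, two-sided, p = 0.2, adjusted p = 0.4 over 2 tests, smallest possible p 0.1). The peaks fell at 2 sites. The site at chr1:100230884-100231931 had a peak in all 3 KO and all 3 WT libraries. It lay 1.08 kb from the lower H3K9me3 region chr1:100228201-100229800 and 61.9 kb from the nearest higher region. The site at chr1:100369820-100370941 had a peak in 0 KO libraries and 2 WT libraries, and lay 23.5 kb from the nearest higher region. No peak lay in the promoter window shown above.

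In the 1 Mb flanks of Cntnap5c there were 11, 23 and 5 peaks in KO, against 18, 19 and 9 in WT. KO libraries averaged 13.0 ± 9.17 peaks and WT libraries 15.3 ± 5.51 (SD, n = 3 each; exact permutation test, two-sided, p = 0.9, adjusted p = 0.9). The difference of -2.33 turned to 1.67 without KO replicate 3, the shortest list. The nearest peaks lay outside the run of higher H3K9me3, 0.492 Mb before the start and 0.472 Mb behind the end. Before the start there were 10, 19 and 4 peaks in KO, against 15, 15 and 6 in WT.

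The first KO and first WT library shared a title number and were both female, and the other 4 shared another number and were male. Within the first pair Cntnap5b had 2 peaks in KO and 2 in WT, and the flanks of Cntnap5c had 11 in KO and 18 in WT. Within the other 4, Cntnap5b had 1 and 1 peaks in KO, against 3 and 3 in WT, and the flanks had 23 and 5 in KO, against 19 and 9 in WT. Neither difference passed with genotype permuted within title numbers (exact, two-sided, p = 0.333 and 0.833, smallest possible p 0.167). For H3K9me3 the listed values are not tied to animals, so values within a title number or a sex cannot be given. A single H3K9me3 title number held both genotypes, and each of the others held KO animals only or WT animals only. Title number and sex are thus both partly mixed with genotype for this mark.

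The distance of higher H3K9me3 regions from H3K27ac peaks differed between the members. The median distance to the nearest peak of any library was 2190 kb at Cntnap5a, 226 kb at Cntnap5b and 615 kb at Cntnap5c. Over all listed regions it was 358 kb at higher regions and 25.1 kb at lower ones, so the median at Cntnap5b was shorter than that of all higher regions and the other two were longer. A peak lay within 100 kb of 7 of the 28 higher regions of Cntnap5b (25.0%), of 0 at Cntnap5a and Cntnap5c, and of 16.2% of all listed higher regions. No member region overlapped a peak. Over the whole table, 0.905% of higher and 3.06% of lower regions overlapped one.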

How the data were processed

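The authors deposited 1 H3K9me3 table and 1 H3K27ac peak list per library. Bowtie2 2.3.4.3, MACS2 and mm10 are named in the submitters' processing notes. The sources used here do not name the tool that compared H3K9me3.

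Per the file headers, the table holds normalised counts per listed value, group means (a signal), enrichment (a ratio), log2 fold change of KO over WT, and p-values with adjusted p-values. Over 38105 regions the authors' p differed by at most 0.00674 (log10) from a test on summed values. The H3K27ac lists deposited by the authors hold a score, fold enrichment (a signal) and -log10 p and q per peak, used only to filter.

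Regions were matched by symbol, and genes by RefSeq GRCm38.p6 (5625 of 5667 symbols). H3K27ac counts were compared with exact permutation tests (scipy 1.17.1), adjusted by Benjamini-Hochberg. The test on summed values, the recovery of reads and the median-ratio scaling were tried on simulated data. Peak counting and the permutation tests were not. Replicates are separate animals. Named regions were, per gene, the 3 higher with the smallest adjusted p, the 2 nearest each end, up to 3 lower, and the first beyond each end. Alternatives covered thresholds, scaling, pseudocount, flank size, left-out values and, added after seeing the data, a block by title number. The members and lists were chosen with earlier results of these data known. Some genes of the list of relatives are not reported here.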

Additional observations from a re-analysis of the deposited data

How the results depend on the processing

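Leaving out each listed value in turn gave 79 to 79, 28 to 29 and 51 to 51 higher regions at Cntnap5a, Cntnap5b and Cntnap5c. Lower regions numbered 5 to 5, 1 to 2 and 4 to 4, the 1 at Cntnap5b without the third WT value. The medians over all regions of each gene were 0.847 to 1.10, 0.756 to 1.12 and 0.696 to 0.989 (log2), and regions without overlap 67 to 73, 22 to 26 and 37 to 45. At an adjusted p of 1e-10 or less there were 16, 5 and 3 higher and 1, 0 and 0 lower regions. The share of all listed regions at that threshold is not given here, so nothing is read from these counts about the members. Median-ratio scaling gave medians of 1.83, 1.77 and 1.69 and 0, 0 and 0 lower regions. A pseudocount of 20 gave 0.67 at Cntnap5a. The share of higher regions before Cntnap5b was 96.2% in 0.5 Mb and 68.5% in 2 Mb. H3K27ac peaks in KO minus WT were -1.67 to -1.17 inside Cntnap5b and -7.33 to 1.67 in the flanks of Cntnap5c, 1.67 being without KO replicate 3. With 5 or more regions per gene, 3 of the 5 genes with the nearest profiles were shared. At -log10 q of 5 or more the H3K27ac differences shrank to -0.333 inside Cntnap5b and to 0.0 in the flanks of Cntnap5c. The share of higher regions behind Cntnap5c was 53.3% in 0.5 Mb, against 40.0% in 1 Mb. With the title number as a replicate block, chosen after seeing the data, the H3K27ac differences stayed at -1.33 and -2.33, and neither passed (exact permutation p = 0.333 and 0.833). For H3K9me3 no paired analysis was possible because the listed values are not tied to animals. Low read numbers at the first listed values limit the precision of single regions.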
